A study of Mus musculus with 14 samples.

Results

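The matrix metalloproteinases (MMPs), the ADAM and ADAMTS proteases and their tissue inhibitors (TIMPs) were examined in mouse ovarian tumour cells grown as tumorspheres. Members were taken by name: a protein-coding gene whose symbol is Mmp, Timp, Adam or Adamts followed by a number and at most 1 letter. This gave 79 of the 35275 genes measured, made up of 23 Mmp, 33 Adam, 19 Adamts and 4 Timp genes. The cells were KMF, an aggressive line obtained by passaging ID8 cells of C57Bl6 mice in vivo, and 4 lines derived from it that all carry the FAK knockout of clone KT13. FAK KO was KT13 itself, a single CRISPR clone (n = 3). FAK-WT was KT13 with lentiviral GFP-FAK (n = 3), FAK-R454 was KT13 with the kinase-inactive GFP-FAK-R454 (n = 2), and β-catenin ΔGSK, written ΔGSK from here on, was KT13 with retroviral active β-catenin (n = 3). Parental KMF cells were not edited (n = 3). No cells were treated, and every sample came from spheres grown for 5 days in serum-free PromoCell XF medium. FAK KO cells differ from KMF cells in being 1 clone as well as in lacking FAK, and these cannot be told apart. The transduced lines were also drug-selected and enriched by flow cytometry, and no KT13 line with an empty vector is among the samples. Against FAK KO cells, the insert and these steps cannot be told apart either. The RNA samples of a line were independent, but nothing says that they were separately derived lines, so p-values measure the spread between samples of 1 line.

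MMPs are zinc-dependent proteases made as inactive zymogens, and most of them cut components of the extracellular matrix. Collagenases open fibrillar collagen, gelatinases digest the denatured product, stromelysins have a broad range of matrix substrates, and membrane-type MMPs act at the cell surface. ADAMs carry a disintegrin domain beside the protease, and several of them release the outer parts of growth factors and receptors from the cell, a step called shedding. The secreted ADAMTS proteases bind matrix through thrombospondin repeats, and cleave proteoglycans of the hyalectan family, trim the ends of procollagens or act on other matrix proteins. TIMPs block the active site of MMPs, and TIMP3 also inhibits several ADAM and ADAMTS proteases.

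Levels are given as FPKM, fragments scaled to gene length and to the mapped fragments of the sample, which allows genes of different length to be compared. Between 25390558 and 35289859 fragments per sample were counted on genes. Ptk2, which encodes FAK, had a mean of 19.0 FPKM in FAK KO cells, 15.5 in ΔGSK, 24.3 in KMF, 43.4 in FAK-WT and 62.4 in FAK-R454 cells, so its mRNA was not lost in the knockout. Correlations between samples of 1 line on the log2 scale ran from 0.987 to 0.995. Replicate 3 of FAK-WT correlated at 0.987 and 0.989 with the other FAK-WT samples, and 1 pair each of KMF, FAK KO and ΔGSK samples was nearly as low, at 0.990, 0.990 and 0.989. Of 10 epithelial and mesothelial markers, 6 were above 1 FPKM, among them Krt8, Krt19, Wt1 and Msln, while Krt7, Pax8, Epcam and Cdh1 were below 1 FPKM in every line. All 10 together summed to 1069.1 to 1250.5 FPKM in FAK KO, 1174.5 to 1203.6 in KMF, 1218.3 to 1399.6 in ΔGSK, 1257.1 to 1294.3 in FAK-R454 and 1569.6 to 1809.4 in FAK-WT cells. The 6 leukocyte markers measured summed to 4.04 to 5.21 FPKM in ΔGSK cells, 6.85 to 9.10 in KMF, FAK KO and FAK-R454 cells and 11.6 to 16.7 in FAK-WT cells, nearly all from Cd68 and Cd14, with Ptprc at or near 0. The 6 fibroblast markers summed to 30.8 to 45.1 FPKM in ΔGSK, 41.8 to 49.8 in KMF, 90.0 to 126.6 in FAK KO, 121.7 to 131.7 in FAK-R454 and 123.1 to 145.3 in FAK-WT cells, nearly all from Dcn, Col1a1 and Pdgfra, with Col1a2, Lum and Thy1 at or near 0. Dcn made up most of each sum, and the markers did not move alike. The mean of Dcn was 99.0 FPKM in FAK KO and 33.1 in KMF cells. Pdgfra went the other way, from 3.03 to 9.06 FPKM, as did Col1a1, from 1.33 to 2.46 FPKM. The 4 endothelial markers, nearly all Tek, summed to 6.55 to 7.42 FPKM in ΔGSK cells, 17.1 to 19.2 in the other KT13 lines and 29.6 to 30.0 in KMF cells, with Kdr and Cdh5 at or near 0. These lists moved with the lines, and their part in the results below was not tested. In such samples, fewer cells that express a gene and less of its RNA per cell cannot be told apart.

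Most genes of these families were silent or nearly silent in the spheres. A gene was taken as expressed when its mean was above 1 FPKM in at least 1 line, which held for 27 of the 79 members (34.2%) and for 51.7% of all 22026 protein-coding genes. All 4 Timp genes were expressed, as were 10 of 23 Mmp, 8 of 19 Adamts and 5 of 33 Adam genes. Of the expressed members, 18 were above 1 FPKM in all 5 lines. Another 35 members had fragments in at least 1 sample but no line mean above 1 FPKM, and 17 had none in any sample. The 24 ADAMs whose known roles lie in the brain or the reproductive tract included no expressed gene, and 9 of them had no fragment at all.

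The summed FPKM of the 4 inhibitors exceeded that of all protease members in every line. Timp2 was the most abundant member, followed by Adam10, Timp3, Adam9 and Adam15, each ranked by the mean of its 5 line means. The 4 Timp genes together summed to 750.8 ± 15.2 FPKM in FAK KO, 752.6 ± 5.997 in KMF, 816.3 ± 42.6 in FAK-WT and 532.7 ± 9.97 in ΔGSK (SD, n = 3 each), and to 878.4 ± 3.55 in FAK-R454 cells (SD, n = 2). The 23 Mmp genes together summed to 172.2 ± 7.48 FPKM in FAK KO, 142.0 ± 8.97 in KMF, 164.5 ± 7.34 in FAK-WT and 117.7 ± 6.84 in ΔGSK cells (SD, n = 3 each), and to 194.8 ± 4.54 in FAK-R454 cells (SD, n = 2). Both sums were lowest in ΔGSK and highest in FAK-R454 cells. Among the expressed members, the spread between lines was widest for genes of low and middle level. The highest line mean exceeded the lowest 33.9-fold for Timp4, 17.5-fold for Mmp13, 12.0-fold for Mmp10, 10.3-fold for Mmp19 and 10.1-fold for Adamts4, and 1.12-fold for Adam17.

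**Figure D1:**
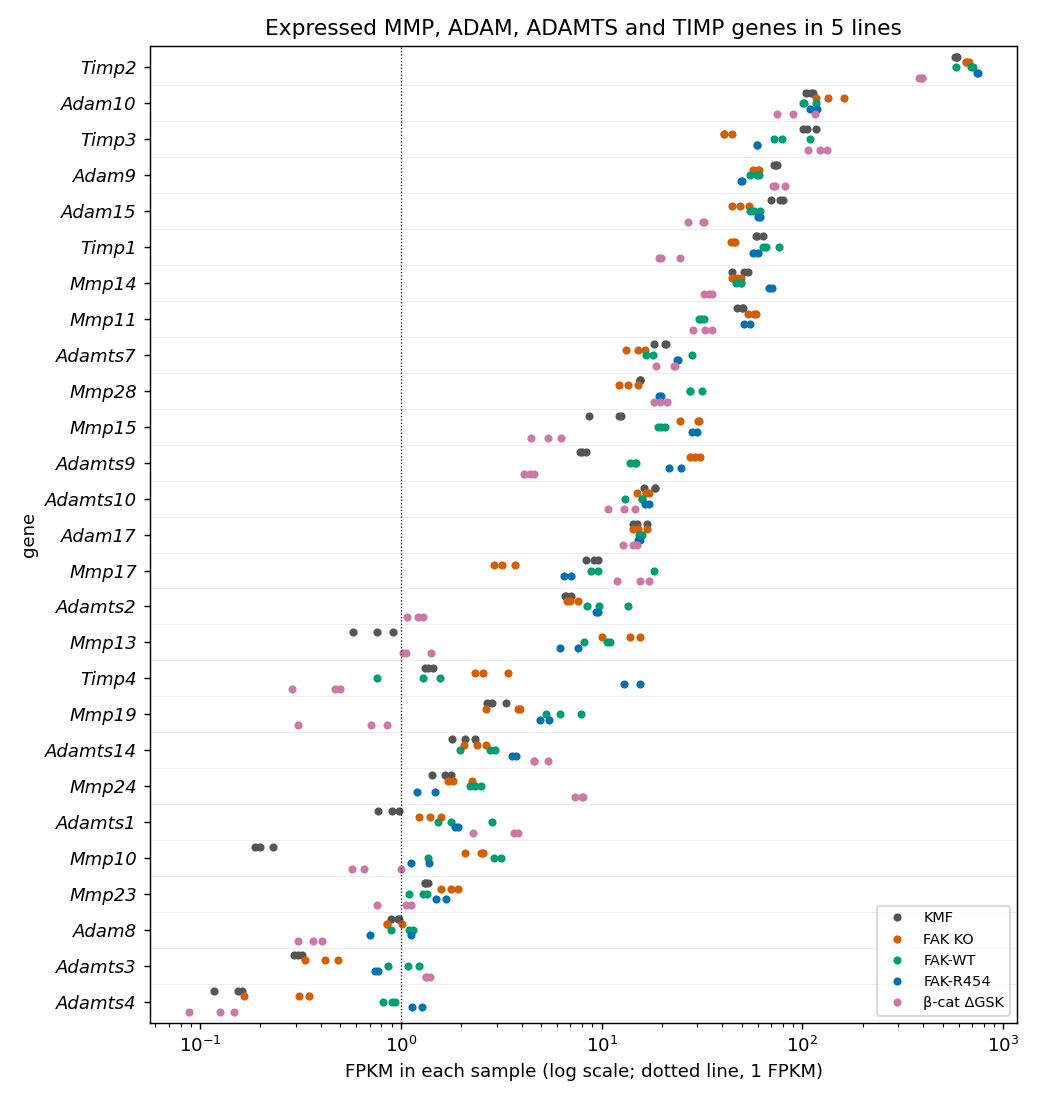
FPKM of the 27 expressed members (rows, ordered by their mean level) in each of the 14 samples on a log axis, coloured by line, with a dotted line at 1 FPKM. Timp2 lies at 382.5 to 748.8 FPKM in every sample, and ΔGSK samples are the lowest for several genes, among them Adamts2, Timp4 and Mmp19.

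Each of the 4 other lines was compared with FAK KO cells, and FAK-WT with FAK-R454 cells, to ask which members follow FAK re-expression, FAK kinase activity, active β-catenin and the KT13 clone. The first 4 comparisons share the same FAK KO samples. To be called, a gene needed a Benjamini-Hochberg adjusted p from limma under 0.05 over all genes tested, a change of at least 1 in size on the log2(FPKM + 0.1) scale and a mean above 1 FPKM in the higher line. A log2 fold change of 1 is a doubling, and the 0.1 added to each value understates the change of low genes. In all, 16 of the 27 members tested were called in at least 1 comparison and 11 in none, against 17.8% called among the 12256 genes tested in at least 1.

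ΔGSK cells differed most from FAK KO cells. Of 25 members tested, 6 were called higher (24.0%, against 5.13% of all 11915 genes tested) and 8 lower (32.0%, against 6.99%). Mmp17, Mmp24, Timp3, Adamts1, Adamts3 and Adamts14 rose, and Mmp10, Mmp13, Mmp15, Mmp19, Timp1, Timp4, Adamts2 and Adamts9 fell. At any fold, 9 members passed the test upwards (23.7% of all genes) and 15 downwards (34.4% of all genes), and 1 did not pass. The median log2 fold change was -0.56 over the members and -0.09 over all genes tested. Adamts3 entered this test only through its level in ΔGSK cells, and Mmp10, Mmp19 and Timp4 only through theirs in FAK KO cells.

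In FAK-WT cells, 4 of 26 members tested were called higher than in FAK KO cells (15.4%, against 2.91% of 11841 genes) and 2 lower (7.69%, against 1.71%). Mmp17, Mmp28, Timp3 and Adamts3 rose, and Adamts9 and Timp4 fell. At any fold, 8 members passed upwards (15.6% of all genes) and 6 downwards (25.2% of all genes), the latter close to the share of all genes. In FAK-R454 cells, 3 of 25 members were called higher than in FAK KO cells (12.0%, against 1.93% of 11818 genes), namely Mmp17, Timp4 and Adamts4. Adamts3 entered the FAK-WT test only through its level in FAK-WT cells, and Adamts4 the FAK-R454 test only through that in FAK-R454 cells. None was called lower by limma (0.812% of all genes were), although 5 had an unadjusted p under 0.05 in that direction, and limma-voom on recovered fragments also called none. At any fold, 12 members passed upwards (9.78% of all genes) and 4 downwards (9.89% of all genes). The median log2 fold change of the members was 0.07 in FAK-WT cells (all genes, -0.08) and 0.31 in FAK-R454 cells (all genes, -0.03). Compared directly, FAK-WT and FAK-R454 cells differed in 1 of 27 members tested, Timp4, which was lower in FAK-WT cells (3.70%, against 0.747% of 11782 genes). No member was called higher in FAK-WT cells by limma or limma-voom (0.696% of all genes were), and 7 had an unadjusted p under 0.05 in that direction. At any fold, 2 members passed upwards (3.38% of all genes) and 5 downwards (4.44%). The 2 FAK-R454 samples limit this comparison, and wherever 1 of them is left out, the remaining one is assumed to vary like the samples of the other line.

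KMF cells had 2 of 24 members called higher than FAK KO cells (8.33%, against 3.97% of 11893 genes) and 4 called lower (16.7%, against 4.04%). Mmp17 and Timp3 were the higher pair, and Mmp10, Mmp13, Mmp15 and Adamts9 were lower. Mmp10 and Mmp13 entered this test only through their level in FAK KO cells. At any fold, 6 members passed upwards (23.1% of all genes), close to the share of all genes, and 10 downwards (28.7% of all genes). The median log2 fold change over the members was -0.18 (all genes, -0.05).

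**Figure D2:**
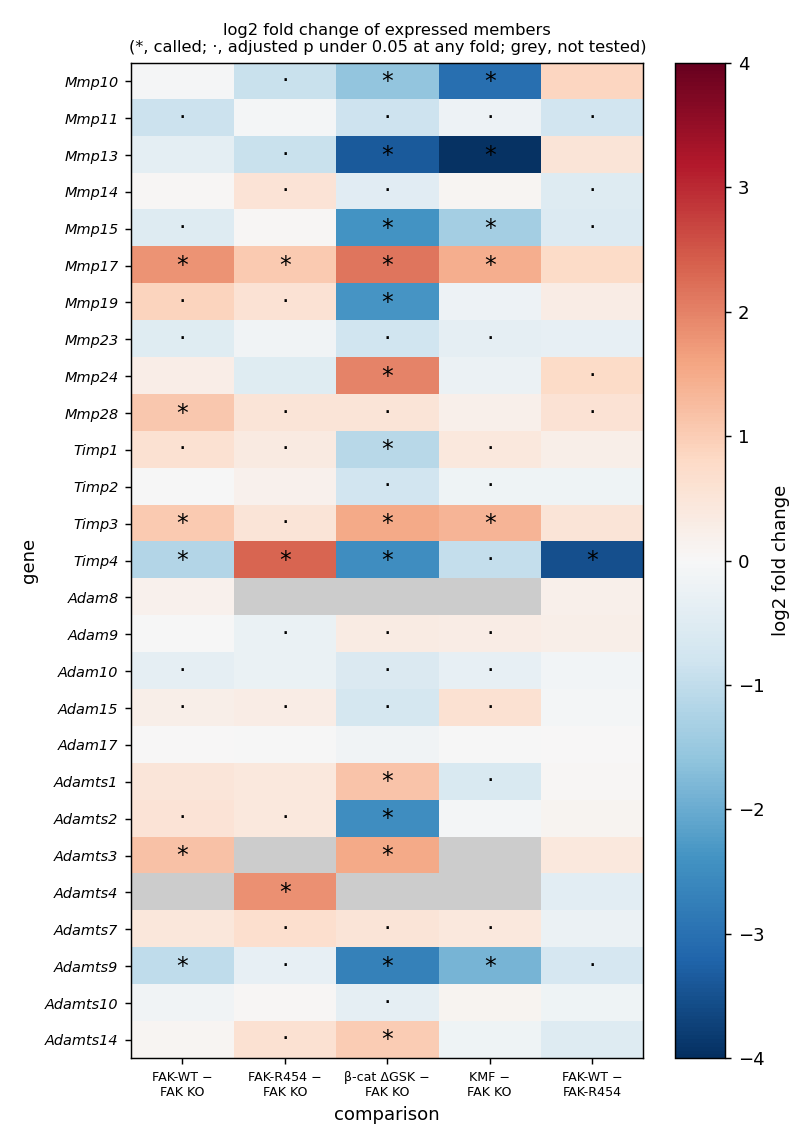
log2 fold change (colour, red for higher and blue for lower in the line named first) of the 27 expressed members (rows) in the 5 comparisons (columns), on the log2(FPKM + 0.1) scale. Stars mark called genes, dots mark an adjusted p under 0.05 at a smaller fold, and grey cells were not tested. Mmp13 in KMF cells has the strongest blue, at -3.95.

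Mmp13 and Mmp10 were high in FAK KO cells and nearly absent from KMF cells. Both lie in the MMP cluster of chromosome 9, where 10 Mmp genes sit within 427.1 kb (GRCm38, chromosome 9, 7272514 to 7699585). Only 4 of these genes had any fragment in these samples (Mmp13, Mmp10, Mmp3 and Mmp12), and 2 were expressed. The sequences upstream of the 3 genes with the most fragments are shown because 2 of them, Mmp13 and Mmp10, were called in ΔGSK and KMF cells and all 3 carry the same pair of short motifs. Mmp3 was too low to be tested. They are the 250 bases before the RefSeq start of each gene on the plus strand (RefSeq, GRCm38.p6), at chr9:7272264-7272513 for Mmp13, chr9:7502092-7502341 for Mmp10 and chr9:7445572-7445821 for Mmp3. Capitals mark the AP-1 motif TGAGTCA or its reverse complement TGACTCA, and the TATA motif TATAAA.
Mmp13: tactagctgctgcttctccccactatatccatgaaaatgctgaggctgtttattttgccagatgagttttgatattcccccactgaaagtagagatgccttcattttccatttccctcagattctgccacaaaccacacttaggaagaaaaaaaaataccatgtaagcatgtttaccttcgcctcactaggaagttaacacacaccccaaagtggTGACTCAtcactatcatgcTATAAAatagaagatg
Mmp10: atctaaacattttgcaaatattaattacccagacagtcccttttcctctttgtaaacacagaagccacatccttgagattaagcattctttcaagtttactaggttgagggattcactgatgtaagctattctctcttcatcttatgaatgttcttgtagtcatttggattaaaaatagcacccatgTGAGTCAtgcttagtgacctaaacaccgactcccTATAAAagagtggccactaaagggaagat
Mmp3: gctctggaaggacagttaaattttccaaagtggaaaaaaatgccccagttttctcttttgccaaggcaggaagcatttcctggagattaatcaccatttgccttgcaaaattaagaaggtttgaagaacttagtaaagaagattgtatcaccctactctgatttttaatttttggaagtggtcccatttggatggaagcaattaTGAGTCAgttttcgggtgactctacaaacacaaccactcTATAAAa

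The AP-1 motif began 35 bases before the start of Mmp13, 63 before Mmp10 and 46 before Mmp3, and the TATA motif 16, 29 and 7 bases before it. The motifs did not overlap each other in these windows. Searched on both strands, the AP-1 motif was found in 4.46% of the 32851 windows of this length and in 9 of the 49 members that have one, of which 7 are cluster genes. TATAAA was found in 12.4% of all windows and in 12 of the 49 members, again 7 of them in the cluster. A match describes the letters only, and several cluster genes that hold both motifs, such as Mmp7, had no fragment in any sample.

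Mmp13 (ENSMUSG00000050578), the collagenase-3 gene, was at 15.5, 10.01 and 13.8 FPKM in FAK KO spheres. FAK-WT spheres had 10.6, 10.97 and 8.19 FPKM and FAK-R454 spheres 7.59 and 6.24 FPKM. In ΔGSK cells it was at 1.03, 1.41 and 1.07 FPKM, and in KMF cells at 0.913, 0.576 and 0.763 FPKM. FAK KO and FAK-WT samples overlapped, while the FAK-R454, ΔGSK and KMF samples each lay below the FAK KO samples. Mmp13 fell by 3.37 on the log2 scale in ΔGSK cells (standard error 0.18, limma adjusted p = 1.16e-06) and was lower by 3.95 in KMF cells (log2 fold change -3.95, standard error 0.19, limma adjusted p = 1.64e-06). The change in FAK-R454 cells was -0.90 (limma adjusted p = 0.0106), below the fold required, and that in FAK-WT cells -0.39 (limma adjusted p = 0.0972). The 3 other mouse collagenase genes, Mmp1a, Mmp1b and Mmp8, had no fragment in any sample.

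Mmp10, which encodes stromelysin-2, was at 2.09, 2.52 and 2.58 FPKM in FAK KO spheres, 2.90, 3.14 and 1.37 FPKM in FAK-WT cells and 1.38 and 1.12 FPKM in FAK-R454 cells. It was at 0.656, 0.572 and 1.01 FPKM in ΔGSK cells. KMF cells had 0.200, 0.187 and 0.231 FPKM, from 10, 9 and 14 fragments. As for Mmp13, the ΔGSK and KMF samples were the lowest. FAK-WT replicates 1 and 2 lay above every FAK KO sample, and replicate 3 among the FAK-R454 samples. The log2 fold change of Mmp10 from FAK KO cells was -1.59 in ΔGSK cells (standard error 0.21, limma adjusted p = 2.35e-04) and -3.02 in KMF cells (standard error 0.18, limma adjusted p = 4.39e-06). With 1 in place of 0.1 added to each value, the ΔGSK change was -0.96, under the required fold. FAK-WT and FAK-R454 cells differed by 0.85 (limma adjusted p = 0.189), and by 1.21 without FAK-WT replicate 3 (limma adjusted p = 8.32e-04).

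Mmp3, the stromelysin-1 gene that lies between them, was below 1 FPKM in every line. It gave 28, 8 and 0 fragments in FAK KO, 13, 6 and 17 in FAK-WT, 6 and 10 in FAK-R454, at most 1 per sample in ΔGSK and at most 1 in KMF cells. The 3 FAK KO samples thus spanned the whole range. Mmp11, or stromelysin-3, which is activated inside the cell by furin, lies on chromosome 10 and followed another order. Its line means were 56.5 ± 2.54 FPKM in FAK KO and 49.2 ± 1.83 in KMF cells (SD, n = 3 each), 53.1 ± 2.51 in FAK-R454 cells (SD, n = 2), and 31.4 ± 0.898 in FAK-WT and 32.2 ± 3.57 in ΔGSK cells (SD, n = 3 each). It passed the test below the required fold in FAK-WT over FAK KO (log2 fold change -0.85), in ΔGSK over FAK KO (-0.82) and in FAK-WT against FAK-R454 cells (-0.76), with limma adjusted p of 6.44e-05, 7.90e-05 and 0.00318.

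**Figure D3:**
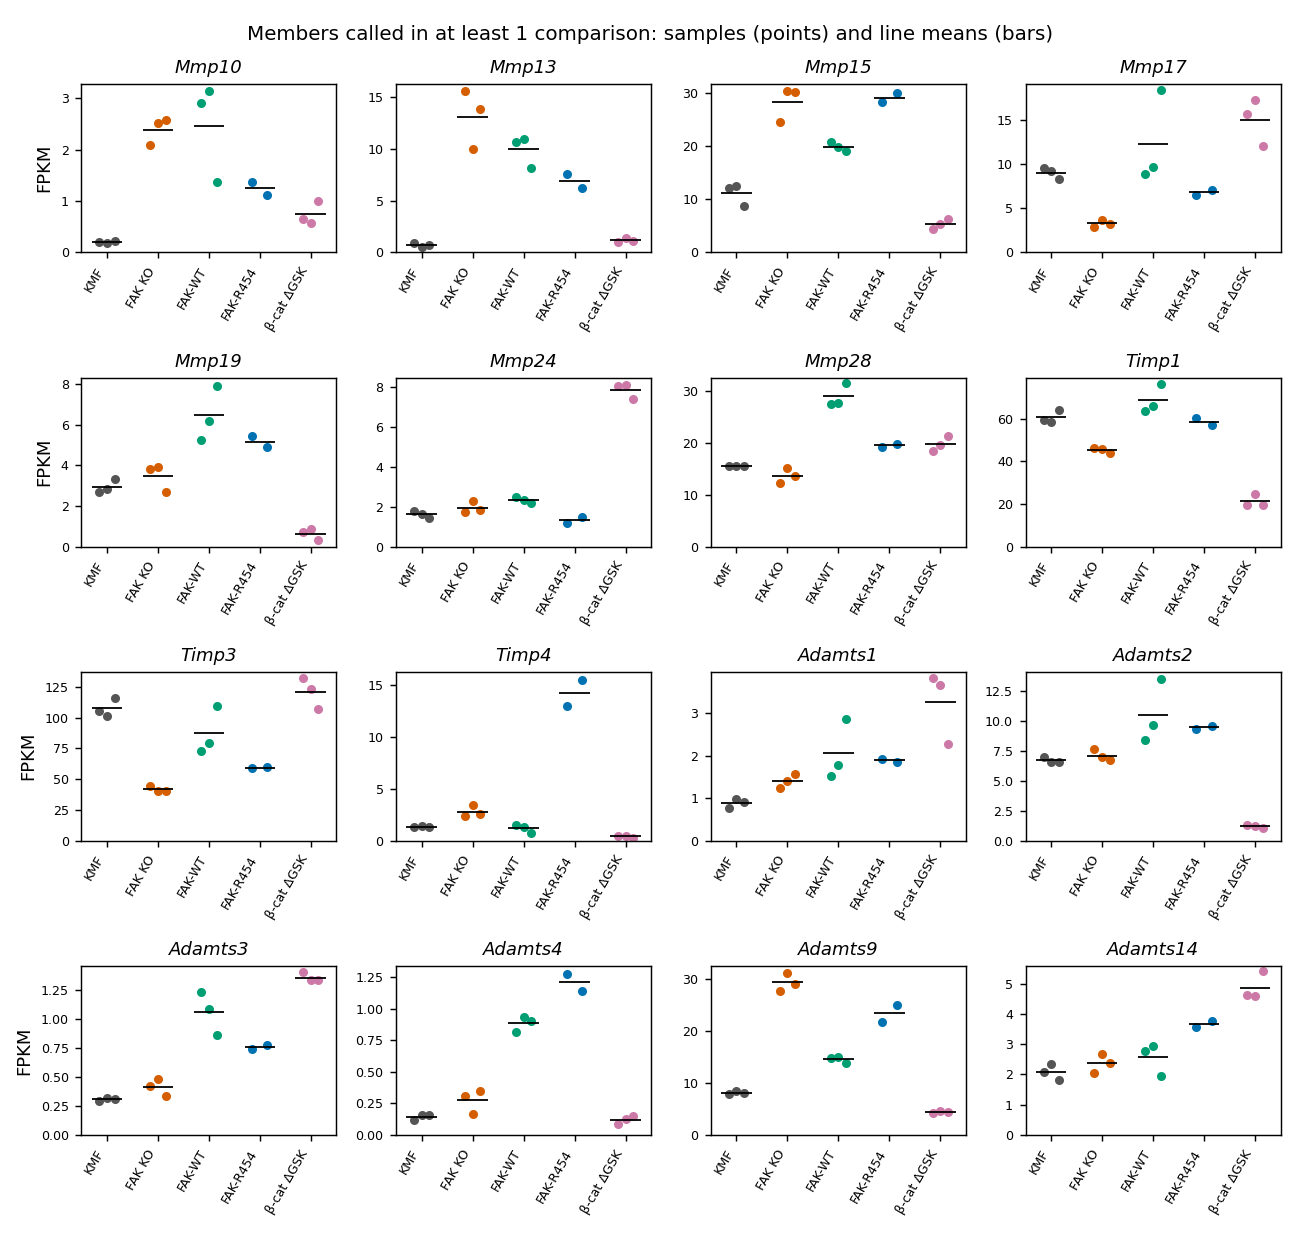
FPKM of the 16 members called in at least 1 comparison, 1 panel a gene, with a point for each sample and a bar at the mean of each line; every vertical axis starts at 0 and has its own scale. Timp4 is at 12.97 and 15.5 FPKM in FAK-R454 cells and at most 3.41 FPKM elsewhere, and the KMF and ΔGSK samples of Mmp13 lie at the bottom of its panel.

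Among the membrane-type MMPs, Mmp17 rose in every line over FAK KO cells and Mmp15 and Mmp24 moved in opposite directions in ΔGSK cells. Mmp17 (ENSMUSG00000029436, chromosome 5, 129584169 to 129608875) encodes MT4-MMP, which is held at the surface by a lipid anchor. It was at 2.92, 3.71 and 3.20 FPKM in FAK KO cells, and FAK-R454 cells had 6.52 and 7.08 FPKM. KMF cells had 9.57, 9.15 and 8.34 FPKM, FAK-WT cells 8.83, 9.61 and 18.3 FPKM, and ΔGSK cells 15.6, 17.3 and 12.0 FPKM. No sample of another line was as low as a FAK KO sample. The log2 fold change over FAK KO cells was 1.798 in FAK-WT (standard error 0.25, limma adjusted p = 0.00116), 1.47 without FAK-WT replicate 3, 1.04 in FAK-R454 (standard error 0.12, limma adjusted p = 0.00106), 1.44 in KMF and 2.15 in ΔGSK cells. FAK-R454 cells fell under the required fold and lost the call, at 0.96 without FAK KO replicate 1 and at 0.98 without FAK-R454 replicate 2. That call was also lost with 1 in place of 0.1 added to each value.

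Mmp15 encodes MT2-MMP. Its values were 24.5, 30.4 and 30.2 FPKM in FAK KO spheres, 28.2 and 29.9 FPKM in FAK-R454 cells and 20.8, 19.7 and 19.1 FPKM in FAK-WT cells. KMF cells had 12.2, 12.4 and 8.66 FPKM, and ΔGSK cells 4.44, 5.43 and 6.31 FPKM. FAK KO and FAK-R454 cells overlapped, and FAK-WT, KMF and ΔGSK cells each formed a lower step without overlap. It fell by 2.38 on the log2 scale in ΔGSK cells (standard error 0.14, limma adjusted p = 1.87e-06). The difference from FAK KO was -1.36 in KMF cells (standard error 0.15, limma adjusted p = 1.17e-04) and -0.50 in FAK-WT cells (limma adjusted p = 0.00405), and FAK-WT cells were 0.55 below FAK-R454 cells (log2 fold change -0.55, limma adjusted p = 0.00781).

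Mmp24, the MT5-MMP gene best known from neurons, was at 8.03, 8.10 and 7.41 FPKM in ΔGSK cells. It was at 1.73, 2.27 and 1.82 FPKM in FAK KO, 1.78, 1.66 and 1.43 FPKM in KMF, 2.51, 2.35 and 2.20 FPKM in FAK-WT and 1.20 and 1.49 FPKM in FAK-R454 cells. The ΔGSK samples stood clear of all others, and Mmp24 rose by 1.97 on the log2 scale over FAK KO (standard error 0.12, limma adjusted p = 2.45e-06). It shares 637 bases with the opposite-strand transcript BC029722, at 18.4 to 24.0 FPKM, and the library kit does not mark strand, so reads of that stretch cannot be assigned to either.

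Mmp14, or MT1-MMP, the main activator of pro-MMP2 at the cell surface, was the most abundant Mmp gene by its mean over the lines and was called in no comparison. It ranged from 32.5 to 35.3 FPKM in ΔGSK cells, from 44.4 to 53.9 FPKM in KMF, FAK KO and FAK-WT cells and from 68.1 to 70.3 FPKM in FAK-R454 cells. FAK-R454 cells thus lay above all other samples, by 0.56 over FAK KO (limma adjusted p = 0.00128), and FAK-WT cells 0.51 below them (log2 fold change -0.51, limma adjusted p = 0.00658). Against this, Mmp2 itself gave only 24 to 79 fragments per sample outside the ΔGSK line and 2, 1 and 0 in ΔGSK cells, below 1 FPKM throughout. The other gelatinase, Mmp9, gave at most 3 fragments in any sample. Mmp16 (MT3-MMP) was seen in KMF cells alone, with 5, 4 and 4 fragments and none in the 11 samples of the KT13 lines, which is at the edge of detection. Mmp25 gave 1 fragment in all.

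Of the remaining expressed Mmp genes, Mmp28 rose with FAK-WT and Mmp19 fell with active β-catenin. Mmp28 encodes epilysin, a secreted MMP of epithelia. FAK-WT cells had 27.5, 27.7 and 31.5 FPKM, FAK KO cells 12.2, 15.1 and 13.6 FPKM and KMF cells 15.6, 15.5 and 15.5 FPKM. FAK-R454 cells had 19.2 and 19.8 FPKM and ΔGSK cells 18.3, 19.6 and 21.2 FPKM. FAK-WT samples were above all others, and the log2 fold change was 1.08 over FAK KO (standard error 0.09, limma adjusted p = 1.45e-04) and 0.56 over FAK-R454 cells (limma adjusted p = 0.0143). Mmp28 shares 466 bases with 1700020L24Rik on the other strand, whose line means were also highest in FAK-WT, at 16.0 FPKM, and lowest in FAK KO cells, at 5.63 FPKM, with 11.6 in ΔGSK, 11.8 in FAK-R454 and 9.40 in KMF cells. Reads in the shared stretch cannot be assigned to a strand.

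Mmp19 is a basement membrane protease. It was at 3.83, 3.91 and 2.67 FPKM in FAK KO, 2.69, 2.84 and 3.34 FPKM in KMF, 5.26, 6.19 and 7.95 FPKM in FAK-WT and 5.45 and 4.92 FPKM in FAK-R454 cells. ΔGSK cells had 0.713, 0.855 and 0.309 FPKM. FAK KO and KMF samples overlapped, as did FAK-WT and FAK-R454 samples, and the latter pair lay above the former. Its log2 fold change from FAK KO was -2.37 in ΔGSK cells (standard error 0.31, limma adjusted p = 2.38e-04), 0.88 in FAK-WT (limma adjusted p = 0.00719) and 0.58 in FAK-R454 cells (limma adjusted p = 0.0426). Mmp19 shares 789 bases with Tmem198b on the other strand. The line means of Tmem198b were also lowest with active β-catenin, at 3.26 FPKM, but highest with FAK-R454, at 6.39 FPKM. Reads of that stretch cannot be assigned to either gene. Mmp23, a membrane-anchored MMP, stayed between 0.985 and 1.77 FPKM in its line means and was called nowhere.

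The 4 inhibitors behaved differently from one another. Timp2, which takes part in MMP2 activation on MT1-MMP and inhibits MMPs broadly, was at 580.2, 592.6 and 576.0 FPKM in KMF, 704.9, 692.2 and 580.7 FPKM in FAK-WT and 654.0, 677.9 and 650.6 FPKM in FAK KO cells. FAK-R454 cells had 743.4 and 748.8 FPKM, and ΔGSK cells 382.5, 392.9 and 395.4 FPKM. It made up 87.6 to 88.3% of all Timp FPKM in FAK KO, 84.9 to 85.0% in FAK-R454, 75.7 to 83.6% in FAK-WT, 76.0 to 78.6% in KMF and 71.5 to 75.8% in ΔGSK cells. Timp2 passed the test below the required fold in ΔGSK cells (log2 fold change over FAK KO -0.76, limma adjusted p = 7.88e-06) and was called in no comparison.

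Timp3 (ENSMUSG00000020044, chromosome 10, 86300372 to 86349506) encodes the inhibitor that binds to the matrix and also restrains ADAM17. It was lowest in FAK KO cells, at 44.4, 40.7 and 40.8 FPKM, followed by FAK-R454 cells at 59.2 and 59.6 FPKM. It was at 72.6, 79.6 and 109 FPKM in FAK-WT, 105, 101 and 116 FPKM in KMF and 133, 123 and 107 FPKM in ΔGSK cells. FAK KO and FAK-R454 samples each formed a step of their own, and the 3 upper lines overlapped. Timp3 changed over FAK KO by 1.52 on the log2 scale in ΔGSK (standard error 0.09, limma adjusted p = 1.91e-06), 1.36 in KMF (standard error 0.07, limma adjusted p = 2.76e-06), 1.03 in FAK-WT (standard error 0.14, limma adjusted p = 9.86e-04) and 0.50 in FAK-R454 cells (limma adjusted p = 0.00196). Without FAK-WT replicate 3 the FAK-WT value was 0.86, past the test but under the required fold.

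Timp4 (ENSMUSG00000030317, chromosome 6, 115245616 to 115251849), the inhibitor with the most restricted tissue pattern, was the expressed member with the widest range between lines and the only member called between FAK-WT and FAK-R454 cells. It was at 12.97 and 15.5 FPKM in FAK-R454 cells, from 510 and 697 fragments. FAK KO cells had 2.35, 3.41 and 2.57 FPKM, KMF cells 1.36, 1.44 and 1.32 FPKM, FAK-WT cells 1.56, 1.29 and 0.764 FPKM and ΔGSK cells 0.473, 0.501 and 0.288 FPKM. KMF and FAK-WT samples overlapped and no other pair of lines did. The log2 fold change over FAK KO was 2.33 in FAK-R454 (standard error 0.16, limma adjusted p = 1.18e-04), -1.17 in FAK-WT (standard error 0.25, limma adjusted p = 0.00778), -2.48 in ΔGSK (standard error 0.22, limma adjusted p = 2.63e-05) and -0.95 in KMF cells (limma adjusted p = 0.00106).

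Compared directly, Timp4 was far lower with FAK-WT than with FAK-R454 (log2 fold change -3.51, standard error 0.28, limma adjusted p = 0.00357). With either FAK-R454 sample left out the size was similar, at -3.63 and -3.38, but the limma adjusted p was 0.0941 and 0.0946. Over FAK KO the log2 fold change in FAK-R454 cells was 2.46 and 2.20 with either sample left out, with limma adjusted p of 0.00193 and 0.00186, where the spread comes from the FAK KO samples alone. The FAK-WT call over FAK KO was lost without FAK-WT replicate 3, where the log2 fold change was -0.90. Of 8 other genes tested within 500 kb of Timp4, 1 was called, and it was higher in FAK-R454 than in FAK KO cells. Of all genes tested, 1.93% were called higher there. The called gene was Gm17482, at 0 FPKM in the other lines and 1.36 FPKM in FAK-R454 cells, and tested only through the latter. It shares 6234 bases with Timp4 on the other strand, so reads of that stretch cannot be assigned to either gene. The rest ranged from -0.45 (Pparg) to 0.30 (Tamm41).

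Timp1, a secreted inhibitor and a growth factor for some cells, was at 46.2, 45.5 and 43.9 FPKM in FAK KO, 59.2, 58.6 and 64.1 FPKM in KMF, 63.8, 65.8 and 76.3 FPKM in FAK-WT and 60.3 and 56.9 FPKM in FAK-R454 cells. ΔGSK cells had 19.7, 24.7 and 19.3 FPKM. The ΔGSK samples were below and those of the other 3 lines above all FAK KO samples. The log2 fold change over FAK KO was -1.10 in ΔGSK cells (standard error 0.10, limma adjusted p = 2.45e-05), and 0.60, 0.37 and 0.42 in FAK-WT, FAK-R454 and KMF cells, all past the test below the required fold. Timp1 lies on chromosome X, where the median log2 fold change in ΔGSK cells was -0.30, and centred on its chromosome its value was -0.87. With median-of-ratios scaling it was -0.99, and both values fall under the required fold, so that the call was lost. Timp1, Timp3 and Timp4 lie inside the synapsin genes Syn1, Syn3 and Syn2, on the opposite strand. The line means of these hosts were 2.70 to 6.18 FPKM for Syn1, 0.0604 to 0.109 FPKM for Syn3 and 0.204 to 0.503 FPKM for Syn2.

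No ADAM gene was called in any comparison by limma or limma-voom, with 4 or 5 of them tested and 1 to 3 at an unadjusted p under 0.05 in each. Since limma called 0.696 to 6.99% of all genes in each direction, no call among so few genes is near the background. Adam10, one of the main sheddases and a protease of Notch receptors, was at 160.8, 117.1 and 134.2 FPKM in FAK KO, 110.9, 104.6 and 113.7 FPKM in KMF and 100.8, 101.5 and 117.1 FPKM in FAK-WT cells. FAK-R454 cells had 109.6 and 118.0 FPKM and ΔGSK cells 116.3, 89.9 and 74.9 FPKM. Neighbouring lines overlapped, and the lines with FAK KO at the top and ΔGSK at the bottom spanned a 1.47-fold range of means. It passed the test at log2 fold changes of -0.36 in FAK-WT, -0.56 in ΔGSK and -0.31 in KMF cells over FAK KO, with limma adjusted p of 0.0373, 0.0163 and 0.0380.

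Adam17, which encodes TACE and releases TNF and several EGF receptor ligands, was nearly level. Its line means were 15.5 ± 1.29 FPKM in FAK KO, 15.4 ± 1.31 in KMF, 15.7 ± 0.281 in FAK-WT and 14.0 ± 1.14 in ΔGSK cells (SD, n = 3 each), and 15.4 ± 0.329 in FAK-R454 cells (SD, n = 2). Over FAK KO cells the 95% confidence interval of its log2 fold change ran from -0.15 to 0.19 in FAK-WT, from -0.20 to 0.19 in FAK-R454, from -0.35 to 0.07 in ΔGSK and from -0.21 to 0.19 in KMF cells. A change of 1 on this scale thus lay outside all 4 intervals, and that for FAK-WT over FAK-R454 was -0.10 to 0.15.

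Adam9, a membrane ADAM with a broad tissue range, was at 60.4, 56.8 and 61.0 FPKM in FAK KO, 72.3, 74.4 and 74.0 FPKM in KMF, 59.7, 60.8 and 55.1 FPKM in FAK-WT, 49.7 and 50.1 FPKM in FAK-R454 and 81.6, 73.1 and 71.3 FPKM in ΔGSK cells. Adam15, a member with an integrin-binding RGD motif in human, was at 44.8, 54.2 and 49.0 FPKM in FAK KO, 77.0, 79.7 and 69.5 FPKM in KMF, 54.9, 57.7 and 61.3 FPKM in FAK-WT, 61.7 and 60.2 FPKM in FAK-R454 and 26.9, 32.2 and 31.9 FPKM in ΔGSK cells. Both were high in KMF cells, but in ΔGSK cells Adam9 was among the highest and Adam15 the lowest of the lines. The log2 fold change over FAK KO in ΔGSK cells was 0.34 for Adam9 and -0.70 for Adam15, and in KMF cells it was 0.31 and 0.61, all past the test below the required fold. Adam8, best known from leukocytes, reached 1.05 ± 0.136 FPKM in FAK-WT cells and had 0.360 ± 0.0503 FPKM in ΔGSK cells (SD, n = 3 each).

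Of the ADAMTS proteases that cleave hyalectans, Adamts9 was the most abundant and fell in 3 lines. Adamts9 (ENSMUSG00000030022, chromosome 6, 92772699 to 92943492) was at 27.6, 31.1 and 29.0 FPKM in FAK KO spheres, 21.6 and 25.0 FPKM in FAK-R454, 14.8, 14.9 and 13.8 FPKM in FAK-WT, 7.81, 8.36 and 7.99 FPKM in KMF and 4.13, 4.63 and 4.40 FPKM in ΔGSK cells. The 5 lines did not overlap. Its log2 fold change over FAK KO was -2.71 in ΔGSK (standard error 0.08, limma adjusted p = 4.10e-08), -1.85 in KMF (standard error 0.07, limma adjusted p = 4.81e-07), -1.01 in FAK-WT (standard error 0.07, limma adjusted p = 4.79e-05) and -0.33 in FAK-R454 cells (limma adjusted p = 0.0318). FAK-WT cells were 0.68 below FAK-R454 cells (log2 fold change -0.68, limma adjusted p = 0.00950). The FAK-WT value stands at the required fold: it was -0.97 without FAK-WT replicate 3, -0.96 without FAK KO replicate 2 and -0.81 centred on chromosome 6, whose median was -0.17.

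Adamts1 and Adamts4 were low and moved in different lines. Adamts1, which is required for normal ovulation in mice, was at 3.82, 3.65 and 2.28 FPKM in ΔGSK cells and at 1.23, 1.41 and 1.58 FPKM in FAK KO cells. It was at 0.768, 0.975 and 0.905 FPKM in KMF, 1.52, 1.78 and 2.86 FPKM in FAK-WT and 1.93 and 1.86 FPKM in FAK-R454 cells. The rise over FAK KO in ΔGSK cells was 1.13 (standard error 0.20, limma adjusted p = 0.00142), and 1.00 without ΔGSK replicate 1, just under the required fold. Adamts4, or aggrecanase-1, was above 1 FPKM only in FAK-R454 cells.

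Adamts4 was at 1.28 and 1.14 FPKM in FAK-R454 cells, from 156 and 159 fragments, and at 0.817, 0.934 and 0.907 FPKM in FAK-WT cells. FAK KO cells had 0.310, 0.166 and 0.350 FPKM, KMF cells 0.118, 0.155 and 0.161 FPKM and ΔGSK cells 0.0883, 0.126 and 0.147 FPKM. Both lines with re-expressed FAK were thus above all others, although FAK-WT cells did not reach the level at which a gene was tested against FAK KO. Its log2 fold change from FAK KO to FAK-R454 was 1.84 (standard error 0.32, limma adjusted p = 0.00660), and the call was lost with either FAK-R454 sample left out. It was also lost with 1 in place of 0.1 added to each value.

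The 3 procollagen N-proteinases, which remove the amino-terminal propeptide of fibrillar procollagens, did not move together in ΔGSK cells. Adamts2 was at 1.28, 1.21 and 1.08 FPKM there, and at 7.65, 6.97 and 6.75 FPKM in FAK KO, 7.02, 6.60 and 6.61 FPKM in KMF, 8.43, 9.70 and 13.5 FPKM in FAK-WT and 9.36 and 9.61 FPKM in FAK-R454 cells. It fell by 2.48 on the log2 scale over FAK KO (standard error 0.11, limma adjusted p = 4.31e-07).

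Adamts14 rose in the same cells, to 4.62, 4.61 and 5.41 FPKM from 2.06, 2.67 and 2.39 FPKM in FAK KO cells. It was at 2.08, 2.35 and 1.803 FPKM in KMF, 2.79, 2.94 and 1.96 FPKM in FAK-WT and 3.57 and 3.75 FPKM in FAK-R454 cells. The log2 fold change of 1.01 over FAK KO (standard error 0.12, limma adjusted p = 1.67e-04) stands at the required fold, and was 0.92 without FAK KO replicate 1 and 0.94 without ΔGSK replicate 3. Adamts3, which also processes VEGF-C, was at 1.40, 1.33 and 1.34 FPKM in ΔGSK, 1.24, 1.09 and 0.865 FPKM in FAK-WT, 0.741 and 0.774 FPKM in FAK-R454, 0.295, 0.321 and 0.306 FPKM in KMF and 0.421, 0.486 and 0.335 FPKM in FAK KO cells. These lines did not overlap. Its log2 fold change over FAK KO was 1.52 in ΔGSK (standard error 0.18, limma adjusted p = 1.60e-04) and 1.18 in FAK-WT cells (standard error 0.23, limma adjusted p = 0.00587). With 1 in place of 0.1 added to each value, these were 0.74 and 0.54, and both calls were lost.

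Adamts7, a protease of cartilage oligomeric matrix protein, and Adamts10, which acts in fibrillin microfibrils, were called nowhere. Line means of Adamts7 ranged from 15.01 FPKM in FAK KO to 23.9 FPKM in FAK-R454 cells, with 28.2 FPKM in FAK-WT replicate 3 against 16.7 and 18.1 FPKM in the other FAK-WT samples. It overlaps Tbc1d2b on the other strand, at 20.3 to 39.4 FPKM. Adamts10 ranged from 12.8 FPKM in ΔGSK to 17.7 FPKM in KMF cells in its line means.

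Several members that never reached 1 FPKM still had fragments mainly in 1 or 2 lines. They were not tested, and their fragment counts are given per sample. In ΔGSK cells, Adamts8 gave 34, 23 and 32 fragments, Adamts16 32, 27 and 38 and Adamts15 52, 77 and 73. All other samples gave at most 3 fragments of Adamts8 and at most 3 of Adamts16, while Adamts15 gave 15, 22 and 34 in KMF cells and 1 to 13 in the other KT13 lines. Adamts8 and Adamts15 belong to the hyalectan-cleaving group, as does Adamts5, or aggrecanase-2, which was highest in KMF cells with 92, 111 and 95 fragments, against 9 to 37 in the samples of the other lines.

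In both lines with re-expressed FAK, Adam19, a membrane sheddase, gave 14, 24 and 46 fragments in FAK-WT and 15 and 23 in FAK-R454 cells, and at most 2 in any other sample. Adamts12, the second protease of cartilage oligomeric matrix protein, gave 27, 17 and 17 in FAK-WT and 17 and 25 in FAK-R454 cells, 5 to 8 in ΔGSK cells and at most 3 in KMF and FAK KO samples. Adam33, an ADAM of smooth muscle and fibroblasts, was highest in FAK-R454 cells with 57 and 48 fragments. Adam11, a brain ADAM without protease activity, gave 26, 34 and 31 in FAK-WT cells and at most 20 in any other sample. Adam25, a testis gene that lies within a run of related Adam genes on chromosome 8, gave 53 to 71 in KMF cells, at most 4 in ΔGSK cells and 16 to 35 in the other KT13 lines, and fragments of near-identical copies may be assigned to the wrong gene. Mmp7, the matrilysin gene, had no fragment in any sample, and Mmp12, the macrophage elastase gene, at most 3.

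**Figure D4:**
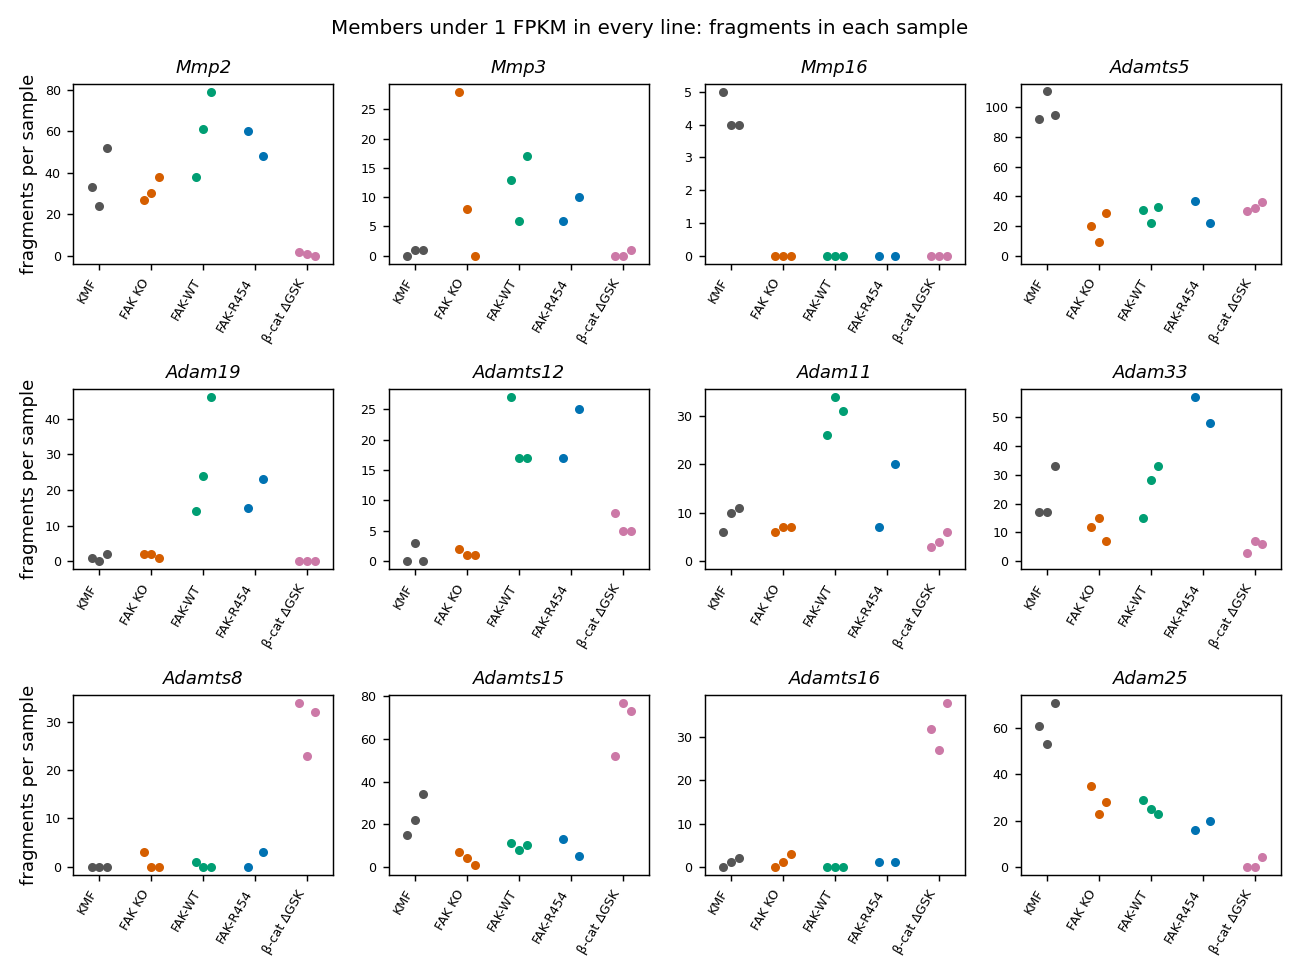
Fragments per sample (vertical axes from 0, each with its own scale) of 12 members whose mean stayed at or below 1 FPKM in every line, by line. Adamts8, Adamts15 and Adamts16 are highest in the ΔGSK samples, Adam19 and Adamts12 in the FAK-WT and FAK-R454 samples, and Adamts5 and Mmp16 in the KMF samples.

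Genes that activate or anchor these proteases were described from a list of 27, of which 17 or 18 were tested in each comparison. In ΔGSK over FAK KO cells 2 of 17 were called higher and 3 lower, against 5.13% and 6.99% of all genes. Both plasminogen activators were among the calls. Pcsk5, a proprotein convertase, rose from 1.37, 1.30 and 1.28 FPKM in FAK KO cells to 6.07, 6.53 and 5.39 FPKM (log2 fold change 2.10, limma adjusted p = 1.12e-06). Plat, the tissue plasminogen activator gene, rose from 16.5, 17.8 and 16.9 FPKM to 39.7, 39.9 and 43.5 FPKM (log2 fold change 1.26, limma adjusted p = 1.33e-06). The other plasminogen activator gene, Plau, fell by 1.65 on the log2 scale and was tested only through its level in FAK KO cells. Tspan15, a tetraspanin partner of ADAM10, was also called lower, with a log2 fold change of -1.03, which stands at the required fold.

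In KMF over FAK KO cells, Bsg and Pcsk6 were called higher and Pcsk5 lower, with log2 fold changes of 1.01, 1.46 and -1.10. That is 2 and 1 of 18 tested, against 3.97% and 4.04% of all genes. Pcsk6 was tested only through its level in KMF and Pcsk5 only through that in FAK KO cells, which fixed the direction of any call. In FAK-WT over FAK KO cells only Bsg was called, at 1.18 (limma adjusted p = 0.0418), or 1 of 17 against 2.91% of all genes. Bsg encodes basigin, known as an inducer of MMPs, and was at 586.3, 721.8 and 1846 FPKM in FAK-WT cells, against 467.3, 498.4 and 290.2 FPKM in FAK KO cells. The FAK-WT value rests on replicate 3, and without it the log2 fold change was 0.68. In KMF cells Bsg was at 751, 662 and 1120 FPKM, so replicate 3 was the highest there too. Over FAK KO cells, Bsg also passed the test below the required fold in FAK-R454 (0.90, limma adjusted p = 0.0182) and ΔGSK cells (0.94, limma adjusted p = 0.00501). No gene of the list was called by limma in FAK-R454 over FAK KO cells (7 at an unadjusted p under 0.05, 1 called by limma-voom) or between FAK-WT and FAK-R454 cells (7 at an unadjusted p under 0.05, none called by limma-voom). With 0.696 to 1.93% of all genes called in each direction there, no call among 17 genes is near the background, which holds for the other gene lists below as well. Reck, a membrane inhibitor of MMPs, was below 1 FPKM in every line, with 0.613, 0.724 and 0.691 FPKM in KMF cells and at most 0.160 FPKM in any other sample.

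Of 11 genes measured for ADAMTS-like proteins and hyalectans, 5 or 6 were tested in each comparison. Adamtsl4, which binds fibrillin, rose in FAK-WT (log2 fold change 1.18) and was higher in KMF cells (1.23) than in FAK KO cells. Adamtsl5 (1.19) and Papln (1.70) were also higher in KMF cells, and Papln rose by 1.10 in ΔGSK cells. The 3 higher in KMF cells were among 5 tested, against 3.97% of all genes. FAK-WT cells had 1 called higher and 1 lower of 5 tested, against 2.91% and 1.71% of all genes. ΔGSK cells also had 1 higher and 1 lower of 5, against 5.13% and 6.99%. Papln, below 1 FPKM in FAK KO cells, was tested only through the higher line in both cases. Bcan, the gene of the hyalectan brevican, fell from 1.37, 0.810 and 1.61 FPKM in FAK KO cells to at most 0.194 FPKM in FAK-WT and 0.0755 FPKM in ΔGSK cells, and was tested there only through its level in FAK KO cells. Neither comparison with FAK-R454 cells had a call by limma, with 3 and 4 genes at an unadjusted p under 0.05 and 1 and 0 calls by limma-voom. Vcan, the other hyalectan with fragments of note, had line means of 0.0809 FPKM in ΔGSK and 1.37 FPKM in FAK-WT cells.

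Among 24 genes whose products are shed by ADAM10 or ADAM17, 17 or 18 were tested in each comparison. The calls were 2 lower and 1 higher of 18 in ΔGSK (against 6.99% and 5.13% of all genes), 3 lower of 17 in KMF (against 4.04%) and 1 lower of 17 in FAK-WT cells (against 1.71%). All called genes were ligands of the EGF receptor, but other substrates stood just under the required fold in ΔGSK cells. Among these were Cxcl16 (-0.98), Notch2 (-0.95) and Cd44 (0.97), all past the test. Hbegf and Tgfa, also such ligands, were tested in all 5 comparisons and called in none. Tgfa still passed the test downwards over FAK KO, at -0.43 in FAK-WT, -0.24 in FAK-R454, -0.72 in ΔGSK and -0.86 in KMF cells. Areg was at 36.5, 31.6 and 32.7 FPKM in FAK KO spheres, 19.8, 18.6 and 12.1 FPKM in ΔGSK cells and 7.09, 6.57 and 8.84 FPKM in KMF cells, with log2 fold changes of -1.02 and -2.16. Ereg had -1.03 and -2.06 in the same lines. Btc had -1.003 in FAK-WT cells, which stands at the required fold, and -1.54 in KMF cells. Epgn rose by 1.60 in ΔGSK cells, where it was tested only through its level in those cells. No shed substrate was called by limma in FAK-R454 over FAK KO cells (7 at an unadjusted p under 0.05, 1 called by limma-voom) or between FAK-WT and FAK-R454 cells (8 at an unadjusted p under 0.05, none called by limma-voom).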

How the data were processed

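Poly(A)-selected RNA of 14 tumorsphere samples was sequenced from libraries whose kit does not mark strand. The authors deposited 1 table of FPKM per gene and sample; no column was left unmapped. The submitters' processing notes name CASAVA 1.8, STAR 2.5, DESeq2 and mm10, while the paper's methods name TopHat2, so the aligner behind these values is not settled. Of 34490 gene IDs matched, 99.84% overlapped their GRCm38 position, and all 79 members did. FPKM multiplied by gene length and divided by the smallest step of a sample gave whole fragments for 100% of values (tolerance 0.01). These fragments show the depth and cover counting error only.

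Members were matched by symbol and gene type. They, the role groups and the pathway and marker lists were chosen with earlier results of these data known. Genes with a mean above 1 FPKM in at least 1 of the 2 lines were compared on log2(FPKM + 0.1) with limma 3.58.1 (trend) in R 4.3.3, 2 lines at a time, without covariates. P-values were adjusted by Benjamini-Hochberg over all genes tested, so that an adjusted p is never over the members alone. A call needed an adjusted p under 0.05, a log2 fold change of 1 and a mean above 1 FPKM in the higher line. Members called in any comparison and the 5 most abundant ones are given in every sample. The fits were tested on simulated data. Alternatives were a pseudocount of 1, no filter, median-of-ratios scaling, a replicate block, limma-voom on recovered fragments, 1 fit of all 5 lines, centring by chromosome, no fold threshold and leaving out each sample. Genes of the pathway lists were followed only through limma-voom counts, and Bsg without FAK-WT replicate 3. Their calls near the required fold, such as those of Tspan15, Areg, Ereg and Btc, were not checked against the rest. Promoter windows came from RefSeq (GRCm38.p6). No protein sequences were used here. A gene of the list of activators and anchors is not reported here.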

Additional observations from a re-analysis of the deposited data

How the results depend on the processing

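Over the alternatives, 385 fold changes of called members were recomputed: 358 kept direction and call, 27 kept direction and lost the call, and 0 changed sign. With a pseudocount of 1, which shrinks low genes by construction, FAK-WT over FAK KO cells had 0 members lower in place of 2 and 3 higher in place of 4 (without Adamts3). FAK-R454 over FAK KO had 1 higher in place of 3 (without Mmp17 and Adamts4). ΔGSK over FAK KO had 3 higher in place of 6 (without Adamts1, Adamts3 and Adamts14) and 7 lower in place of 8 (without Mmp10). Median-of-ratios scaling, which moved the median of all genes between FAK-WT and FAK KO cells from -0.08 to -0.01, left 1 lower (Timp4) and 4 higher there. Centring by chromosome left 0 lower there. Both also lost the call of Timp1 in ΔGSK over FAK KO cells. Without a fold threshold the counts were 8 higher and 6 lower in FAK-WT, 12 and 4 in FAK-R454, 9 and 15 in ΔGSK and 6 and 10 in KMF over FAK KO cells, and 2 and 5 in FAK-WT against FAK-R454 cells. Same-numbered samples did not deviate together in every pair of any comparison. In ΔGSK over FAK KO cells their correlations were 0.45, 0.28 and 0.08, and 2 of 3 samples matched their own number best. Nothing states that a number marks a shared preparation, so whether such samples are paired is not settled. With the replicate block, 1 member (Mmp10, log2 fold change 1.21) was called higher in FAK-WT over FAK-R454 cells in place of 0, and no other call changed. FAK-WT replicate 3 has no partner there and drops out of the blocked contrast, and without that sample and without the block the value was also 1.21.

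Leaving out 1 sample at a time gave 3 to 4 members higher and 0 to 2 lower in FAK-WT over FAK KO, 1 to 3 higher and 0 to 2 lower in FAK-R454 over FAK KO, 5 to 6 higher and 8 lower in ΔGSK over FAK KO, 2 higher and 4 to 5 lower in KMF over FAK KO, and 0 to 1 higher and 0 to 1 lower in FAK-WT against FAK-R454 cells. Beside the cases given with each gene, Mmp13 was called lower in FAK-R454 over FAK KO without FAK KO replicate 2 (-1.08) and without FAK-R454 replicate 1 (-1.03), the latter also for Mmp10 (-1.03) and with the spread of the FAK KO samples alone. Mmp19 was called higher in FAK-WT over FAK KO without FAK-WT replicate 1 (1.01), where Adamts3 fell under 1 FPKM in both lines and was not tested, and Timp4 lower in KMF over FAK KO without FAK KO replicate 1 (-1.06). Depth limits the members under 1 FPKM, most of which rest on under 100 fragments a sample.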
